A study of Mus musculus with 24 samples.

Results

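The mouse mitochondrial genome is a small circle of DNA kept inside the organelle, and the RNAs copied from it are the subject of these results: 13 mRNAs, 2 ribosomal RNAs (rRNAs) and 22 transfer RNAs (tRNAs). Members were the rows of the count table whose gene symbol starts with mt-, 37 of 49568 rows. All 37 lie on chromosome M of the GENCODE M21 annotation of the genome build GRCm38. The cells were NIH/3T3, an established and immortal line of mouse embryonic fibroblasts, grown for 24 h in halofuginone, at a labelled dose of 100 nM, or in its PBS vehicle. The drug inhibits Eprs, the cytosolic enzyme that attaches glutamate and proline to their tRNAs. Each treatment was measured in whole-cell RNA ("total RNA") and in 3 pools of a polysome gradient, which parts mRNAs by the number of cytosolic ribosomes on them. The ribosome-free pool held free mRNA and single ribosomal subunits, the light pool mRNAs on 1 to few ribosomes, and the heavy pool mRNAs on more than 5. With 3 libraries in each of the 8 groups there were 24 libraries, described by the study as biological triplicates.

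Mitochondrial DNA is transcribed from both strands into long precursors, and the tRNAs that punctuate them are cut out to free the mRNAs and rRNAs. The mRNAs, with few exceptions, receive short poly(A) tails and are translated inside the organelle on mitochondrial ribosomes that are built on the mitochondrial rRNAs. They therefore have no place on the cytosolic polysomes that a gradient resolves. The proteins are core subunits of respiratory chain complexes I, III and IV and of the ATP synthase (complex V), whose other subunits come from nuclear genes. The libraries were made with a kit that selects poly(A) RNA. Mitochondrial rRNAs and tRNAs mostly lack a long tail, and mt-Nd6 is known as an mRNA without a stable one. How much of each RNA the kit captured was not measured here.

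Sequences are shown first for the 5 tRNAs whose values are described by name. They are the tRNAs for proline (mt-Tp) and glutamate (mt-Te), the amino acids that Eprs handles in the cytosol, and the 3 other tRNAs with the highest mean level over all libraries, for isoleucine (mt-Ti), tryptophan (mt-Tw) and threonine (mt-Tt). Each is the gene in the sense of the tRNA, 5′ to 3′, from the GENCODE M21 transcripts of GRCm38, with the anticodon in capitals.
mt-Tp (chrM:15356-15422, minus strand): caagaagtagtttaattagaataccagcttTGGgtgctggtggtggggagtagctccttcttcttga
mt-Te (chrM:14071-14139, minus strand): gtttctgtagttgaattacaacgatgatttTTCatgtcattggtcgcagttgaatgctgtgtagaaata
mt-Ti (chrM:3706-3774, plus strand): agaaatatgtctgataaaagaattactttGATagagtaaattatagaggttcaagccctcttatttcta
mt-Tw (chrM:4950-5016, plus strand): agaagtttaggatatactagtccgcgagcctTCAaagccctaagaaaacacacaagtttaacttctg
mt-Tt (chrM:15289-15355, plus strand): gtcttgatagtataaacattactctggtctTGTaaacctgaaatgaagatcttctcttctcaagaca
The mitochondrial proline and glutamate tRNAs are charged inside the organelle by enzymes of its own, Pars2 and Ears2.

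Which members could be measured followed their place on the genome. At least 3 counts were found in every library for 9 members: mt-Rnr1 and mt-Rnr2, the rRNAs of the small and large mitochondrial ribosomal subunit, and the mRNAs mt-Nd1, mt-Nd2, mt-Nd4, mt-Nd5 and mt-Nd6 (complex I), mt-Co1 (complex IV) and mt-Cytb (complex III). This limit was chosen after the values were seen. The other 6 mRNAs, mt-Co2, mt-Atp8, mt-Atp6, mt-Co3, mt-Nd3 and mt-Nd4l, are neighbours on chrM:7013-10173, and their counts were at or near 0 in most libraries. The rows of mt-Atp8, mt-Nd3 and mt-Nd4l were 0 in all 24 libraries. mt-Co2 was 0 in 11 libraries and had at most 380 counts, and mt-Co3 was 0 in 14 with at most 2261. mt-Atp6 was also 0 in 14 libraries, and 21169 of its 23883 counts came from a single vehicle ribosome-free library. No complex V mRNA could thus be followed across the groups.

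The stretch of near-zero counts has a copy in the nuclear genome. GENCODE annotates 7 pseudogenes side by side at chr1:24611535-24616197 on the minus strand, and for 5 of the 6 low mRNAs at least 98.0% of all 50-base windows occur unchanged in another annotated transcript. The exception is mt-Atp8, none of whose windows were shared: its place falls in a gap of 233 bases between the pseudogenes Gm28661 and Gm10925, where no transcript is annotated. Gm28661 (copy of mt-Co2), Gm10925 (mt-Atp6) and Gm28437 (mt-Co3) were identical to their mitochondrial gene over 681, 678 and 783 aligned bases. Gm28438, the copy of mt-Nd3, differed from it by 1 base in 345, written T3C (mt-Nd3 has T at base 3 of the gene and the pseudogene has C). The start of both is shown, from the GENCODE M21 transcripts, because that base, in capitals, is the one difference between the 2 aligned sequences. Its part in the counts below was not tested.
mt-Nd3 (chrM:9459-9518, plus strand): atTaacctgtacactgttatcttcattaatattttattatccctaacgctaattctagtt
Gm28438 (chr1:24613060-24613119, minus strand): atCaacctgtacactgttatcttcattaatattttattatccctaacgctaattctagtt
Over the 24 libraries the row of Gm28438 held 20010 counts and that of mt-Nd3 held 0. Gm10222, identical to mt-Nd4l over 294 bases, held 22 counts against 0. How reads that match 2 places were treated is not given in the sources used here, and the part of that step in the low rows was not tested.

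**Figure D1:**
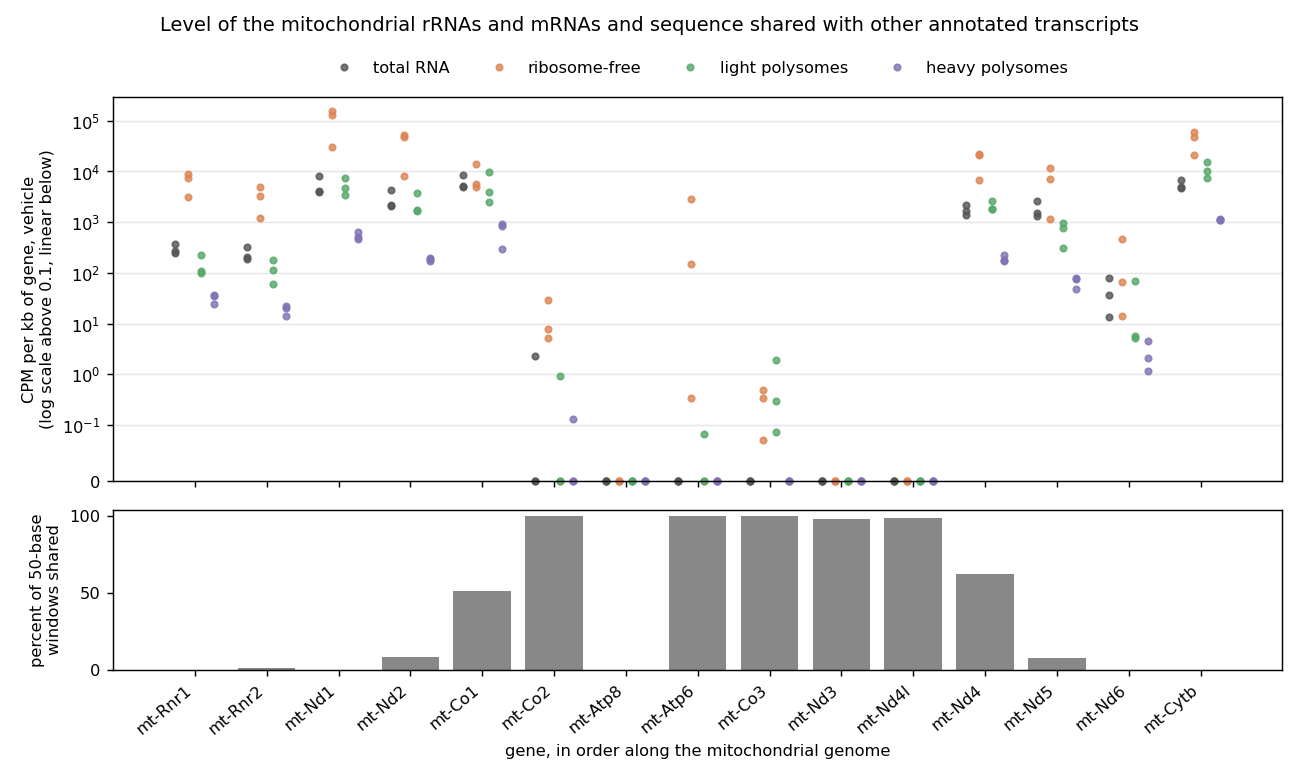
Upper panel: counts scaled to library total and gene length (CPM per kb) of the rRNAs and mRNAs in the 12 vehicle libraries, 1 point a library, in the order of the genes; the axis is logarithmic above 0.1 and linear below. Lower panel: percent of each gene's 50-base windows that occur unchanged in another annotated transcript. The 6 genes from mt-Co2 to mt-Nd4l sit at or near 0 in most libraries, with mt-Atp6 high in 2 ribosome-free libraries, and all but mt-Atp8 share nearly all windows.

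Among the 9 measured members, mt-Nd1, mt-Nd6, mt-Cytb and mt-Rnr1 shared no 50-base window, while mt-Co1 shared 51.1% and mt-Nd4 62.2% of theirs. Levels of those last 2 genes per length are therefore less certain than the rest. Some neighbouring genes also overlap, among them mt-Atp8 with mt-Atp6, mt-Nd4l with mt-Nd4 and, on opposite strands, mt-Nd5 with mt-Nd6. The tRNA genes mt-Ti and mt-Tw each overlap the end of an mRNA gene, mt-Nd1 and mt-Nd2. The part of reads from these mRNAs in the tRNA counts was not tested. The strand setting of the counting is not given in the sources used here. Of the 22 tRNAs, 14 had any count and 8 were 0 in all libraries. Only mt-Tt was above 0 in all 24.

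Library depth ran from 10300517 to 24970047 counts, which puts 3 counts, the floor used here, at 0.12 to 0.291 CPM (a count scaled to a common library total). Column headers fall into 2 sets: set A, with 1 library a group (called number 1 here) and 50 nM in its halofuginone headers, and set B, with 2 libraries a group (numbers 2 and 3 in total RNA, 2 and 4 in the pools). The ribosome-free pool joins gradient fractions 1 to 2 in set A and 1 to 5 in set B, so the set, the fraction limits and the dose in the headers cannot be told apart. The halofuginone total RNA libraries 2 and 3 were the most alike of all replicate pairs, at a mean chi-square of 2.96 per gene against 19.6 or more. The 8 fibroblast markers summed to 1530 to 12200 CPM, with Vim at 654 to 4930 CPM and Lum at 0.172 to 74.3 CPM. The adipocyte markers summed to 35.6 to 349 CPM, of which Lpl had 30.7 to 319 and Adipoq at most 0.0645, and the muscle markers to at most 68.0 CPM. The epithelial, endothelial and leukocyte markers summed to at most 1.67, 1.99 and 10.3 CPM.

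Mitochondrial RNA made up a large part of the ribosome-free libraries and little of the heavy polysome libraries. In vehicle, the mRNAs took 8.19% of all counts in ribosome-free library 1 and 33.2% and 29.5% in libraries 2 and 4. After the drug, these libraries held 10.4%, 31.4% and 21.8%. Both set A libraries lay below all 4 of set B, so the level of this pool depended on the set.

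Heavy polysome libraries held 0.387%, 0.377% and 0.272% mitochondrial mRNA without the drug and 0.348%, 0.734% and 0.529% under it. The highest heavy library thus lay below the lowest ribosome-free library by more than an order of magnitude. Light polysomes were intermediate and close to total RNA, at 2.38%, 4.93% and 2.51% in vehicle and 2.78%, 7.65% and 2.43% after the drug. Total RNA held 2.37%, 4.08% and 2.44% in vehicle and 2.17%, 3.36% and 3.38% after it. The ranges of total RNA and of the light pool overlapped. In ratios of group means, the mRNA share of the ribosome-free pool was 68.5 times that of the heavy pool in vehicle and 39.5 times with halofuginone. These are shares of each library's counts, in which more mitochondrial RNA and less of the other RNA in a pool cannot be told apart.

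**Figure D2:**
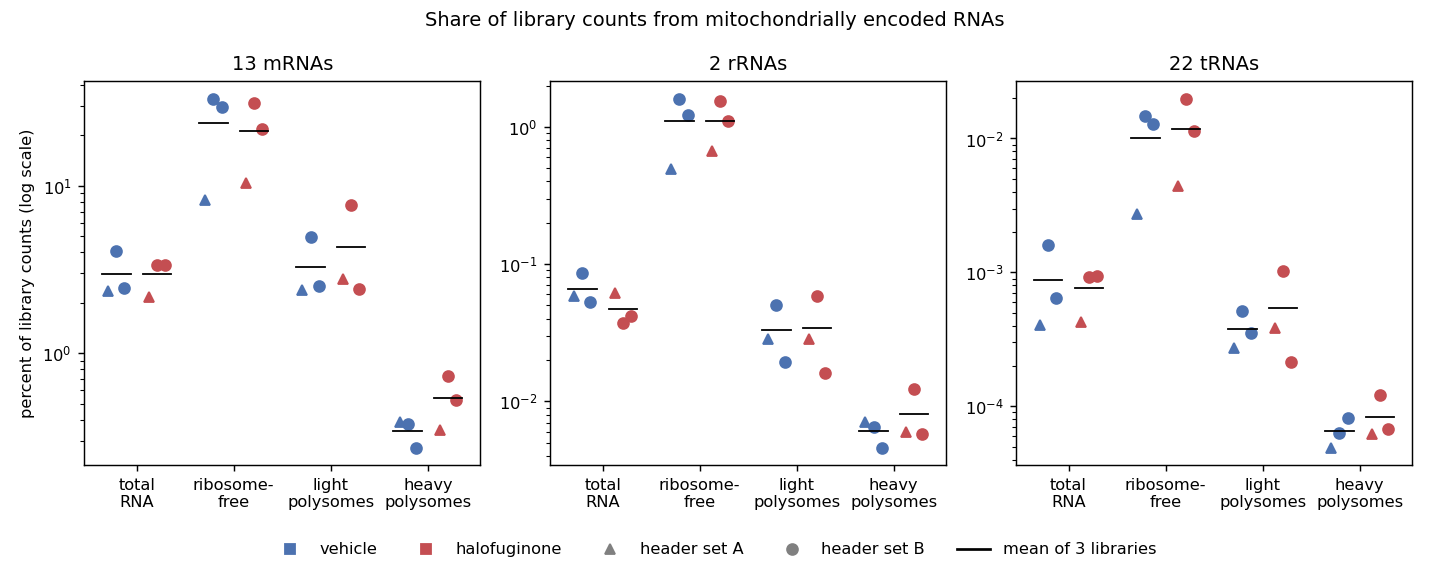
Percent of library counts (log scale) from mitochondrial mRNAs, rRNAs and tRNAs in the 4 kinds of RNA; each point is a library, triangles are header set A, circles set B, and bars are means of 3 libraries. In all 3 classes the ribosome-free libraries are highest and the heavy polysome libraries lowest.

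The rRNAs and tRNAs were also highest in the ribosome-free and lowest in the heavy libraries, but in group means their light polysome shares lay below those of total RNA. The 2 rRNAs took 0.494%, 1.61% and 1.22% of counts in the vehicle ribosome-free libraries and 0.00710%, 0.00648% and 0.00457% in the heavy ones, a ratio of means of 183. With halofuginone that ratio was 138. All tRNAs together reached 0.0199% of a library at most, in halofuginone ribosome-free library 2, and 0.000122% at most in heavy polysomes. Counting error alone was at most 1.03% of the value for an mRNA share, 7.93% for an rRNA share and 61.6% for a tRNA share (the reach of the Wilson 95% interval to one side), so the heavy polysome tRNA values, from 11 to 23 counts a library, are imprecise.

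The ratio of rRNA to mRNA within a library differed between the pools. For 1000 mitochondrial mRNA counts there were 41.3 to 64.0 rRNA counts in the 6 ribosome-free libraries, 11.2 to 28.3 in total RNA, 10.98 to 18.4 in heavy and 6.67 to 12.04 in light polysomes. The ribosome-free range overlapped none of the other 3. Both parts of such a ratio come from the same library, so it does not move with the library total.

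In the test of heavy polysomes against the ribosome-free pool, every member that could be tested was lower in heavy polysomes. The fit was edgeR's quasi-likelihood test over all genes that passed its expression filter, and a gene is named as called at a Benjamini-Hochberg adjusted p below 0.05 over all genes tested. In vehicle 15 of 15 tested members were called lower, where 17.7% of the 12225 genes tested were called lower and 29.6% were called in either direction. With halofuginone it was 16 of 16, against 12.6% lower and 21.1% in either direction of 12238 genes. The filter keeps a gene through the pool where it is high, so members kept for their ribosome-free counts had to differ, and the 9 measured members are the firmer ones. Their median log2 fold change over the 7 mRNAs was -7.16 in vehicle and -6.42 with halofuginone, beside a median over all genes of -0.02 and 0.02.

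Of the complex I mRNAs, mt-Nd1 had 29110, 152400 and 122800 CPM in the vehicle ribosome-free libraries 1, 2 and 4 and 602, 494 and 453 CPM in the heavy ones. With halofuginone it had 39990, 145000 and 97380 CPM against 427, 975 and 758. All ribosome-free libraries were far above all heavy ones. Its log2 fold change, heavy over ribosome-free, was -8.37 ± 0.85 (SE, adjusted p = 0.00123 in edgeR, n = 3 libraries a group) in vehicle and -7.76 ± 0.67 (adjusted p = 0.000438) with halofuginone. Each SE of a fold change here was derived from the test, as the absolute log2 fold change over the square root of the F statistic. It is therefore approximate. The other complex I mRNAs of the heavy-strand transcript, mt-Nd2, mt-Nd4 and mt-Nd5, had log2 fold changes of -8.37, -7.16 and -7.38 in vehicle and -7.62, -6.41 and -6.42 with halofuginone, all called.

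mt-Co1, the catalytic subunit of cytochrome c oxidase, fell least of the measured members. It had 8770, 21450 and 7474 CPM in the vehicle ribosome-free libraries and 1289, 1436 and 463 CPM in the heavy ones. With halofuginone the values were 6940, 13600 and 5357 CPM against 1100, 2143 and 918. The log2 fold changes were -4.39 ± 0.69 (adjusted p = 0.00317 in edgeR) in vehicle and -3.44 ± 0.55 (adjusted p = 0.00347) with halofuginone.

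mt-Cytb, the mitochondrial subunit of complex III, came next. Ribosome-free libraries held 24110, 54440 and 69600 CPM in vehicle, and heavy ones 1322, 1262 and 1282, a spread of a few percent among the 3 heavy libraries. With halofuginone the same libraries held 26430, 50150 and 51330 CPM against 1401, 3025 and 2597 CPM. The log2 fold change was -6.03 ± 0.62 (adjusted p = 0.00123 in edgeR) in vehicle and -4.90 ± 0.50 (adjusted p = 0.000659) with halofuginone. The difference between mt-Co1 or mt-Cytb and the other members was not tested in the fit.

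Both rRNAs were called with falls as large as that of mt-Nd1. mt-Rnr1 changed by -8.42 ± 0.65 in vehicle and -8.10 ± 0.63 with halofuginone on the log2 scale, and mt-Rnr2 by -8.14 ± 0.71 and -7.59 ± 0.62. mt-Nd6, the only mRNA of the light-strand transcript, changed by -6.87 ± 1.25 (adjusted p = 0.00505 in edgeR) and -7.16 ± 1.54 (adjusted p = 0.0109). Without halofuginone heavy library 1 the adjusted p of mt-Nd6 in edgeR was 0.0549, and without the ribosome-free library 2 its log2 fold change was -4.67 in vehicle and -3.53 with halofuginone, both called. The named tRNAs mt-Ti, mt-Tw, mt-Tt and mt-Tp passed the filter through the ribosome-free pool and had 0 to 7 counts in each heavy library, so their calls are read no further and no fold is given. The same holds for mt-Tm, mt-Co2, mt-Co3 and mt-Atp6, which were called in 1 or both treatments with 3 counts or fewer over a heavy group. The filter left mt-Te out.

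The size of these falls depends on the scaling. Against library totals alone the median of all genes moved to 0.80 in vehicle and 0.73 with halofuginone, and calls over all genes turned from 1457 higher and 2159 lower to 4508 higher and 1177 lower in vehicle and from 1037 and 1541 to 3573 and 900 with halofuginone. All 9 measured members stayed called lower under it, where 9.63% of all genes in vehicle and 7.35% with halofuginone were. The members kept through their ribosome-free counts did too, but their calls are read no further here either. With that scaling mt-Nd1 had -7.62 and mt-Co1 -3.56 in vehicle.

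**Figure D3:**
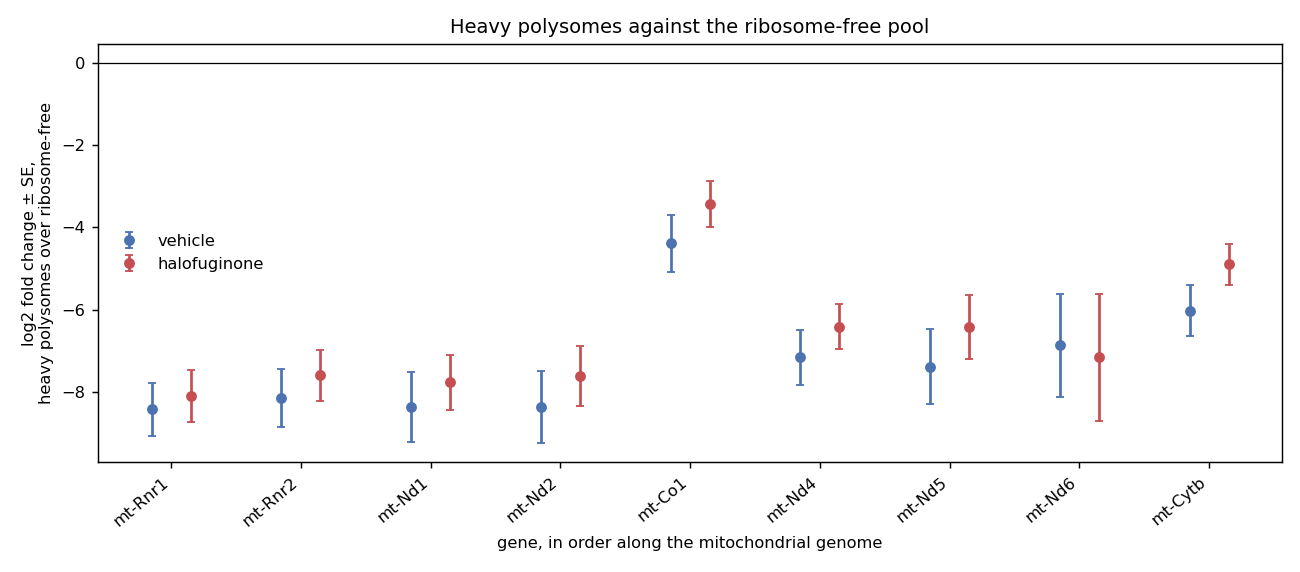
Log2 fold change with its standard error (bars, derived from the F statistic of the test), heavy polysomes over the ribosome-free pool, for the 9 measured members, in vehicle and halofuginone (edgeR, 3 libraries a group). All lie below 0; mt-Co1 at -4.39 and -3.44 is nearest to it.

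Markers of nuclear RNA also differed between the pools. The summed level of 4 RNAs known to stay in the nucleus (among them Malat1 and Neat1) was 834 to 1440 CPM in total RNA, and in vehicle 45.0, 315 and 435 CPM in ribosome-free libraries 1, 2 and 4 and 26.0 to 75.0 CPM in heavy polysomes. The ribosome-free libraries low in mitochondrial RNA, those of set A, were also the lowest in these RNAs, at 45.0 and 38.7 CPM. Within set B the order was reversed. In both treatments library 2 had a larger share of mitochondrial mRNA than library 4 but a lower sum of these RNAs. With halofuginone those sums were 105 and 487 CPM. The 10 noncoding RNAs that carry no poly(A) tail summed to 5.01 to 33.8 CPM in the vehicle ribosome-free libraries and 0.0445 to 1.36 CPM in the vehicle heavy ones, and to 5.79 to 14.8 and 0.095 to 1.64 CPM with halofuginone. The part of either list in the mitochondrial shares was not tested.

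The makeup of the mitochondrial mRNA differed between the ribosome-free pool and everything else. mt-Nd1 was 35.5% to 46.2% of mitochondrial mRNA counts in the 6 ribosome-free libraries and 12.3% to 19.3% in the other 18. mt-Co1 was the reverse, at 2.46% to 10.7% in ribosome-free libraries and at least 12.3% in all others, with 28.5% to 32.4% in total RNA. For 1000 mt-Nd1 counts there were 55 to 301 mt-Co1 counts in the ribosome-free pool, 1642 to 2143 in total RNA, 720 to 2097 in light and 1024 to 2910 in heavy polysomes. The ranges of the ribosome-free pool and of each other kind of RNA did not overlap, in either treatment.

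mt-Cytb stood out in the ribosome-bearing pools. It was 36.3% to 47.2% of mitochondrial mRNA counts in light and 33.5% to 49.1% in heavy polysomes, above the 19.3% to 25.2% of total RNA and the 16.0% to 29.4% of the ribosome-free pool. mt-Nd5, the longest of the mRNAs, set total RNA apart instead. It made up 10.3% to 13.8% of the mRNA counts in total RNA and 2.25% to 6.42% in the 18 pool libraries. mt-Nd2 ran from 4.21% to 6.57% in heavy polysomes to 10.4% to 17.3% in the ribosome-free pool, while mt-Nd4 varied least, between 6.40% and 13.3% over all 24 libraries. These shares add up to 100% in each library, so a rise of 1 mRNA lowers the rest, and they are given as a description.

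**Figure D4:**
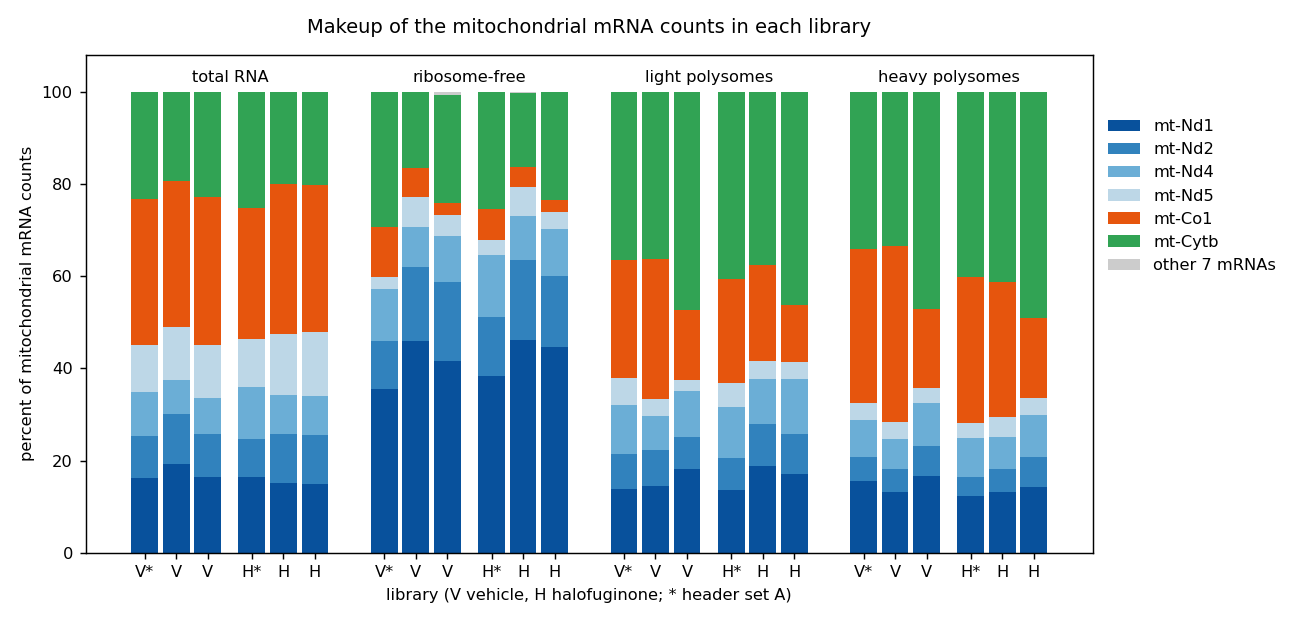
Percent of mitochondrial mRNA counts from each mRNA in each of the 24 libraries (V vehicle, H halofuginone, * header set A). mt-Nd1 fills 35.5% to 46.2% of the ribosome-free bars and mt-Co1 at most 10.7%, while mt-Cytb takes a larger share in polysomes than elsewhere and mt-Nd5 in total RNA.

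Per length, the order of levels in vehicle total RNA was mt-Co1 (6088 ± 1980 CPM per kb, mean ± SD, n = 3), mt-Cytb (5517 ± 1180), mt-Nd1 (5483 ± 2380), mt-Nd2 (2827 ± 1240), mt-Nd5 (1810 ± 655), mt-Nd4 (1739 ± 407), mt-Rnr1 (295 ± 66.7), mt-Rnr2 (238 ± 72.2) and mt-Nd6 (43.5 ± 34.5). Ranges of neighbours in that order overlapped except between mt-Nd4 and mt-Rnr1 and between mt-Rnr2 and mt-Nd6. In the vehicle ribosome-free pool mt-Nd1 led, at 106000 ± 67200 CPM per kb, and mt-Co1, at 8131 ± 5000, stood below mt-Cytb, mt-Nd2 and mt-Nd4. In vehicle heavy polysomes mt-Cytb led at 1126 ± 27.1 CPM per kb, above the whole range of mt-Co1 (688 ± 339). With halofuginone their ranges in that pool overlapped, at 1225 to 2645 CPM per kb for mt-Cytb and 594 to 1387 for mt-Co1.

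The 2 rRNAs, copied from the same precursor, did not keep 1 ratio. mt-Rnr1 had 261, 353.5 and 232 CPM in vehicle total RNA and 3004, 8370 and 7005 CPM in the vehicle ribosome-free libraries. mt-Rnr2 had 329, 507 and 294 CPM and 1933, 7710 and 5200 CPM in the same libraries. In the 6 ribosome-free libraries there were 1086 to 1554 mt-Rnr1 counts for 1000 of mt-Rnr2. The range was 660 to 1051 in total RNA, 558 to 970 in light and 896 to 1050 in heavy polysomes, all below the ribosome-free range.

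mt-Nd6 varied widely between libraries of most groups. In ribosome-free libraries 1, 2 and 4 it had 7.37, 236 and 34.6 CPM in vehicle and 12.02, 763 and 39.6 CPM with halofuginone. Light polysomes held 2.72, 35.8 and 2.96 CPM in vehicle and 8.99, 62.1 and 3.44 with halofuginone. In total RNA the values for libraries 1, 2 and 3 were 6.93, 42.1 and 18.7 CPM in vehicle and 10.8, 9.35 and 10.7 with halofuginone. Library number 2 was the highest of its group in every pool under both treatments and in vehicle total RNA, but the lowest in halofuginone total RNA.

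The tRNAs of the same strand shared the high value of library 2. mt-Te had 0, 46 and 3 counts in the vehicle ribosome-free libraries and 1, 168 and 4 with halofuginone, and mt-Tp had 32, 79 and 10 counts and 42, 262 and 9. All minus-strand tRNAs together had 41, 206 and 38 counts in vehicle and 56, 644 and 33 with halofuginone. The plus-strand tRNAs had 434, 1310 and 1384 counts in vehicle and 715, 1727 and 1158 with halofuginone, high in both set B libraries. mt-Ti, next to mt-Nd1, had 1.61, 54.2 and 83.5 CPM in the vehicle ribosome-free libraries and 2.23, 62.2 and 71.1 CPM with halofuginone, low in set A only. mt-Tw had 8.52, 37.5 and 21.6 CPM in vehicle and 14.2, 38.2 and 21.7 CPM with halofuginone. mt-Tt, whose gene adjoins mt-Cytb, was more even, at 13.8, 16.3 and 5.70 CPM in vehicle and 21.1, 25.9 and 6.74 CPM with halofuginone.

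Outside the ribosome-free pool the named tRNAs had fewer counts. In total RNA mt-Tp had 4, 29 and 15 counts in vehicle and 18, 2 and 3 with halofuginone, and mt-Te had at most 3 counts in any of these 6 libraries. mt-Ti had 16 to 150 counts, mt-Tw 16 to 85 and mt-Tt 12 to 33 in total RNA. In heavy polysomes no named tRNA exceeded 7 counts in a library, and none passed the filter for a test of the treatments there.

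Against vehicle, halofuginone changed no member past the threshold in total RNA or in any pool. The shares of the 3 classes in the 4 kinds of RNA gave exact two-sided permutation p-values of 0.3 or more in 12 comparisons and 1.0 after Benjamini-Hochberg adjustment; 3 libraries against 3 cannot go below 0.10. Mitochondrial mRNA was 2.96% ± 0.971 (SD, n = 3) of total RNA counts in vehicle and 2.97% ± 0.689 with halofuginone (exact p = 1.0). In heavy polysomes it was 0.345% ± 0.0638 and 0.537% ± 0.193 (exact p = 0.3), and in the ribosome-free pool 23.7% ± 13.5 and 21.2% ± 10.5 (exact p = 0.9). The 12 tests of ratios within the mitochondrial RNA had exact p-values of 0.2 or more, and adjusted values of 0.686 or more. These tests leave out the pairing of pool libraries by number. Between same-number libraries, mt-Nd6 against the heavy-strand mRNAs was higher with halofuginone in all 9 pool pairs, by 0.01 to 1.18 on the log2 scale in heavy polysomes, 0.16 to 1.5 in light ones and 0.36 to 1.78 in the ribosome-free pool. The smallest, heavy pair 4, was near a tie, at 0.2204 mt-Nd6 counts per 1000 in vehicle and 0.2222 with halofuginone. Its vehicle library had 8 mt-Nd6 counts, and counting error was not set against these differences. The rRNA to mRNA ratio was lower in all 6 light and heavy pairs and higher in the 3 ribosome-free pairs, and the tRNA to mRNA ratio was higher in the 3 ribosome-free pairs. With 3 pairs in a pool the exact sign-flip test cannot go below 0.25, the value each of these reached. The 9 pool pairs carry only the library numbers 1, 2 and 4, so they may not be independent of each other. In total RNA, mt-Nd6 against the heavy-strand mRNAs was lower with halofuginone in 2 of 3 same-number pairs. The differences there ran from -1.889 to 0.77 on the log2 scale (exact sign-flip p = 0.5).

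In total RNA, 0 of 14 tested members were called (0.0% of 13020 genes in edgeR, with 2292 genes at an unadjusted p below 0.05 and 515, or 3.96%, called by DESeq2, none of them a member). Of these 14, 6 had a log2 fold change above 0. With single libraries left out that count ran from 3 of 15 (vehicle library 1) and 3 of 14 (vehicle library 3) to 9 of 14 (vehicle library 2). mt-Nd1 had 3852, 7881 and 4008 CPM in vehicle and 3548, 5097 and 5040 with halofuginone, a log2 fold change of -0.14 ± 0.34. mt-Cytb had 5501, 7868 and 5564 CPM against 5477, 6726 and 6816 (0.07 ± 0.22), and mt-Co1 7467, 12940 and 7810 CPM against 6188, 10870 and 10800 (0.05 ± 0.33). The groups overlapped for all 9 measured members, where the groups of 23.7% of genes averaging 10 CPM or more did not overlap. The log2 fold changes of mt-Nd6 (-1.07 ± 0.60), mt-Tp (-1.15 ± 0.96), mt-Tt (-0.34 ± 0.47), mt-Ti (-0.07 ± 0.85) and mt-Tw (0.49 ± 0.61) had wide errors.

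The rRNAs were lower against the mRNAs in 2 of 3 halofuginone total RNA libraries. Vehicle libraries 1, 2 and 3 had 24.9, 21.1 and 21.6 rRNA counts per 1000 mRNA counts, and halofuginone libraries 28.3, 11.2 and 12.4. The mean log2 ratio differed by -0.51 (exact p = 0.4, adjusted p = 0.686). Over all 3 libraries mt-Rnr1 changed by -0.37 ± 0.33 (adjusted p = 0.509 in edgeR) and mt-Rnr2 by -0.49 ± 0.25 (adjusted p = 0.333). The result turned on halofuginone library 1. Within set B, 6 of 15 tested members were called, 5 lower and 1 higher, where 70.0% of 13334 genes were called, 36.9% of them lower and 33.1% higher as shares of all genes tested. The 5 lower were mt-Rnr1 (-0.84 ± 0.18, adjusted p = 0.00417), mt-Rnr2 (-0.72 ± 0.23, adjusted p = 0.0226), mt-Nd6 (-1.57 ± 0.34, adjusted p = 0.00413), mt-Tq, the glutamine tRNA, named after its call was seen (-2.15 ± 0.50), and mt-Tp (-3.25 ± 0.51, adjusted p = 0.000720), and mt-Tw was higher (0.78 ± 0.29, adjusted p = 0.0422). Both mt-Tp and mt-Tq had few counts in the halofuginone libraries and passed the filter through vehicle. Their calls and folds are therefore read no further. With halofuginone library 1 alone left out, 3 members were called, mt-Rnr1 and mt-Tp lower and mt-Tw higher, with 61.3% of genes called. The same limit holds for mt-Tp there. These calls rest on the 2 halofuginone libraries that stood closest to each other. The 8 fibroblast marker genes were all called lower in the set B fit, with a median of -1.37, where 36.9% of all genes tested were. The part of the closeness of these libraries, or of the lower marker genes, in the member calls was not tested. None of the 6 mRNAs of the heavy-strand transcript was called in set B.

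In the ribosome-free pool 0 of 17 tested members were called (0.0% of 11960 genes, 30 at an unadjusted p below 0.05, 0 called by DESeq2), and 8 of 17 lay above 0. With single libraries left out, that count ran from 1 of 17 (halofuginone library 2) to 17 of 19 (halofuginone library 1). The log2 fold changes were -0.06 ± 0.73 for mt-Nd1, -0.48 ± 0.64 for mt-Co1, -0.18 ± 0.52 for mt-Cytb, 0.09 ± 0.53 for mt-Rnr1 and -0.01 ± 0.60 for mt-Rnr2. mt-Co1 was lower with halofuginone in each of the 3 libraries set against the vehicle library of the same number, but the groups overlapped, as they did for all 9 measured members (1.15% of genes averaging 10 CPM or more did not overlap). With library number as a block, 15 genes (0.125%) were called, none of them a member. mt-Nd6 (1.68 ± 1.69), mt-Tp (1.39 ± 1.28), mt-Tt (0.66 ± 0.66), mt-Tw (0.19 ± 0.60) and mt-Ti (-0.02 ± 1.34) were less certain still. mt-Atp6 (-3.64 ± 2.61) rested on the 21169 counts of vehicle library 4, beside 4 and 1039 in the other vehicle libraries and 12, 1591 and 34 with halofuginone.

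In light polysomes 0 of 12 tested members were called (0.0% of 12632 genes, 540 at an unadjusted p below 0.05, 39, or 0.309%, called by DESeq2, none of them a member), and all 12 log2 fold changes lay above 0, but 3 of 12 did without halofuginone library 2. mt-Cytb had 8662, 17870 and 11860 CPM in vehicle and 11280, 28590 and 11250 with halofuginone (0.49 ± 0.44). mt-Nd1 had 3289, 7128 and 4557 CPM against 3763, 14430 and 4171 (0.65 ± 0.55). In both genes halofuginone library 2 was the highest of all 6 and the remaining libraries overlapped. No measured member had groups apart, against 9.48% of genes averaging 10 CPM or more. With library number as a block, 3 genes (0.0237%) were called and no member. The values were 0.11 ± 0.65 for mt-Co1, 0.17 ± 0.50 for mt-Rnr1, 0.12 ± 0.51 for mt-Rnr2, 0.96 ± 1.20 for mt-Nd6, 0.94 ± 0.55 for mt-Tt and 0.05 ± 0.82 for mt-Ti.

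In heavy polysomes all 9 tested members had a log2 fold change above 0, and 0 were called (0.0% of 12222 genes, 754 at an unadjusted p below 0.05, 78, or 0.638%, called by DESeq2, none of them a member). mt-Cytb, at 1322, 1262 and 1282 CPM in vehicle and 1401, 3025 and 2597 with halofuginone, was the single member of 9 whose groups did not overlap, where 5.01% of genes averaging 10 CPM or more did so in that direction and 12.2% in either. Its log2 fold change was 0.88 ± 0.30 (adjusted p = 0.792 in edgeR). With library number as a block, 2 genes (0.0164%) were called and no member. mt-Nd1 was at 0.50 ± 0.32, mt-Co1 at 0.40 ± 0.45, mt-Nd6 at 1.35 ± 0.71, mt-Rnr1 at 0.35 ± 0.33 and mt-Rnr2 at 0.48 ± 0.33. Over the 7 measured mRNAs the median was 0.69, beside 0.02 over all genes.

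The heavy polysome values split by set. Between libraries of the same number, the median log2 ratio of halofuginone to vehicle CPM over the 7 mRNAs was 1.05 for number 2 and 0.97 for number 4, with all 7 mRNAs above 0 in both. For number 1, of set A, it was -0.23, with 2 of 7 above 0. The medians for numbers 1, 2 and 4 were 0.58, -0.07 and -0.44 in the ribosome-free pool and 0.19, 0.80 and 0.19 in light polysomes, where all 7 mRNAs lay above 0 for numbers 1 and 2, and those for numbers 1, 2 and 3 were -0.12, -0.25 and 0.47 in total RNA. In heavy libraries 1, 2 and 4 the nuclear-retained RNAs summed to 26.0, 70.6 and 75.0 CPM in vehicle and 17.7, 24.4 and 17.4 CPM with halofuginone. These sums were lower with halofuginone in both sets, while the mRNA median was below 0 in set A and above 0 in set B. Their part in the mitochondrial values was not tested.

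**Figure D5:**
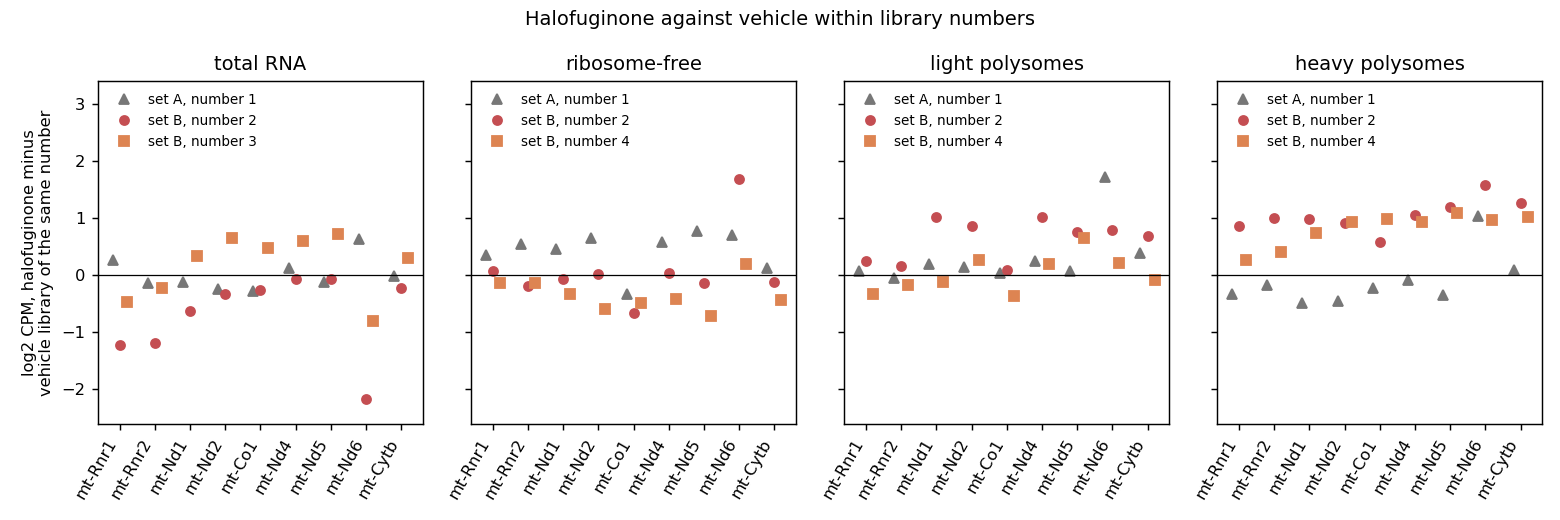
Log2 CPM of halofuginone minus vehicle between libraries of the same header set and number, for the 9 measured members in each kind of RNA; each symbol is a library pair, and the line marks no difference. Both set B pairs lie above 0 for all 9 members in heavy polysomes, and set A does for mt-Nd6 and mt-Cytb.

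Whether halofuginone shifted members between the pools was tested as an interaction over the 12 ribosome-free and heavy libraries. None of 19 tested members was called (0.0% of 13053 genes, 53 at an unadjusted p below 0.05, 0 called by DESeq2), and 12 lay above 0. The difference of log2 fold changes, heavy minus ribosome-free, was 1.14 ± 0.58 for mt-Cytb, 0.95 ± 0.81 for mt-Co1, 0.63 ± 0.80 for mt-Nd1, 0.33 ± 0.63 for mt-Rnr1, 0.56 ± 0.70 for mt-Rnr2 and -0.27 ± 1.98 for mt-Nd6, with adjusted p = 1.0 in edgeR for each. For the named tRNAs it was 0.99 ± 2.15 (mt-Ti), -0.71 ± 1.17 (mt-Tw), 0.67 ± 1.05 (mt-Tt) and -1.79 ± 2.0 (mt-Tp), all resting on the few heavy polysome counts. The separate fits in the 2 treatments share no libraries with each other, but this interaction uses the same 12 libraries as they do.

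Nuclear genes that serve the mitochondrial genome were read from the same fits. They are factors of mitochondrial DNA maintenance and transcription (16 genes), of mitochondrial RNA processing and decay (28, of which 26 are in the table) and of mitochondrial translation (18), nuclear subunits of complexes I, III, IV and V (70) and a mitochondrial stress response list (16). None of the 5 lists had a gene called by edgeR in any comparison of halofuginone with vehicle, in fits with 0 calls over all genes. In total RNA the median log2 fold change was 0.51 for maintenance and transcription with 15 of 16 above 0, 0.37 for RNA processing with 22 of 26 above 0, 0.09 for translation factors with 11 of 18 above 0 and -0.17 for nuclear subunits with 50 of 70 below 0. The median over all genes was 0.02. The members of smallest p were Twnk, the mitochondrial DNA helicase (0.80 ± 0.21, adjusted p = 0.267 in edgeR), Tbrg4 (0.53 ± 0.19), Ears2, the mitochondrial glutamate charging enzyme (1.10 ± 0.37), and Uqcrq of complex III (0.74 ± 0.20). The stress list had a median of 1.01 with 13 of 14 above 0, led by the matrix protease Lonp1 (1.60 ± 0.29, adjusted p = 0.267).

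Within set B of total RNA, where 70.0% of genes were called, 10 of 16 maintenance and transcription factors were called higher and 1 lower, 17 of 26 RNA processing factors higher and 2 lower, 5 of 18 translation factors higher and 4 lower, 13 of 15 stress genes higher and 0 lower, and 7 of 70 nuclear subunits higher and 48 lower. The 7 measured mitochondrial mRNAs had 0 called higher and 1 lower, mt-Nd6, with a median of 0.10, beside -0.53 for the nuclear subunits of the same complexes and -0.02 over all genes.

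Between heavy polysomes and the ribosome-free pool the nuclear subunits spread in both directions. In vehicle 3 of 69 tested were called higher and 20 lower, with a median of -0.76, where 11.9% of all genes were called higher and 17.7% lower. With halofuginone 4 of 70 were higher and 16 lower, with a median of -0.40, against 8.47% and 12.6% of all genes. Of the called subunits Ndufv1 was the highest in vehicle (2.01 ± 0.53, adjusted p = 0.0220 in edgeR) and Ndufc1 the lowest (-3.87 ± 0.47, adjusted p = 0.00157). With halofuginone Uqcr10 was the lowest (-3.69 ± 0.52, adjusted p = 0.00187). Beside these stand -4.39 and -3.44 for mt-Co1, the mitochondrial subunit that fell least, a difference that was not tested. In vehicle the largest fall and rise of the maintenance list were those of Tfb2m, a mitochondrial transcription factor (-1.80 ± 0.40), and of the DNA polymerase Polg (1.24 ± 0.30). Those of the processing list were Slirp (-1.98 ± 0.50) and its RNA-binding partner Lrpprc (1.32 ± 0.37), all 4 called.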

How the data were processed

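The 24 libraries were made with the TruSeq Stranded mRNA kit, per the labels' protocols. The tools were featureCounts, Subread 1.5.0p3, STAR 2.5.2b and Trimmomatic 0.36 and the build GRCm38.p5, per the submitters' processing notes. Not given in the sources used here are each tool's settings, the strand option and the handling of reads with several matches. The values are raw counts per gene, as deposited by the authors in 1 table, and each column was matched to a group but not to a single sample.

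Shares and CPM were computed against each library's total count. All genes were fitted with edgeR 4.0.16 (quasi-likelihood test, TMM scaling, filterByExpr, R 4.3.3) and called at a Benjamini-Hochberg adjusted p below 0.05. Fold changes are log2. The fit reports no SE of a fold change, so it was derived as the absolute log2 fold change over the square root of the F statistic. Shares and ratios were compared by two-sided exact permutation tests. DESeq2 1.42.0, other scalings and filters, a replicate block, set B alone and each library left out were alternatives. The fitting steps were run on counts simulated for the total RNA comparison alone. That simulation held no difference between header sets, so it does not show how the fits behave under the set split here. Gene positions and sequences came from GENCODE M21 (GRCm38).

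Library number was taken as a pairing in the gradient pools, where same-numbered vehicle and halofuginone libraries deviated together (correlations of 0.366 to 0.936).

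Genes named were both rRNAs, the most abundant mRNA of each complex, mt-Nd6, mt-Tp, mt-Te, the 3 other most abundant tRNAs, called members of largest change and, per nuclear list, the called gene of largest change in each direction or else that of smallest p. Members and lists were chosen with earlier results of these data known.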

Additional observations from a re-analysis of the deposited data

How the results depend on the processing

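The named members kept their direction in heavy against ribosome-free under the alternatives run. Among the edgeR alternatives they kept their calls except mt-Nd6 without halofuginone heavy library 1 (adjusted p = 0.0549 in edgeR). With single libraries left out, 15 to 18 members were called lower in vehicle and 16 to 18 with halofuginone. These counts, and the named members above, include members kept through their ribosome-free counts, such as mt-Ti, mt-Tw, mt-Tt and mt-Tp. Those had to differ, so their calls are read no further here either. Not every tested member was called without vehicle heavy library 1 (16 of 18) or without halofuginone heavy library 1, 2 or 4 (16, 17 and 18 of 19). Over all genes these fits called 1897 of 12500 in vehicle. With halofuginone they called 688 of 12669, 2573 of 12645 and 1096 of 12843. DESeq2 gave 3 of the 16 halofuginone members (mt-Atp6, mt-Co3 and mt-Nd6) no adjusted p, so it did not call them. The number of genes called moved more: in vehicle to 5685 with library totals only and 5524 in set B alone (1897 without heavy library 1 to 5844 without ribosome-free library 1), and with halofuginone to 4473 with library totals only, 1617 with a filter at 10 CPM and 1383 in set B (688 without heavy library 1 to 3600 without ribosome-free library 1).

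For halofuginone against vehicle, total RNA calls went from 0 to 515 with DESeq2, 9337 in set B (6 members) and 6 with the set as a covariate, an alternative chosen after seeing the data; leaving out single libraries gave 0 to 8247 genes and 0 to 3 members, both highest without halofuginone library 1. Light polysomes had 47 calls with no filter, 39 with DESeq2 and 3 with the replicate block, heavy polysomes 105, 78 and 2, the ribosome-free pool 15 with the block, and the interaction 7 with no filter and 1 in set B. In heavy against ribosome-free the block called 4508 genes in vehicle and 3705 with halofuginone, within 1.5 times of 3616 and 2578, and it changed no call of a named member. In total RNA the numbers are shared without evident pairing (same-number correlations of 0.408, 0.448 and 0.008), and the block called 0 genes there.

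Log2 fold changes near 0 changed sign, none of them called. In total RNA mt-Ti was 0.36 with the block, and mt-Co1 -0.018 with library totals only and -0.00693 with the 10 CPM filter. In the ribosome-free pool the block and the set covariate gave 0.086 and 0.103 for mt-Rnr2, 0.032 and 0.071 for mt-Nd1 and 0.075 and 0.102 for mt-Ti. Light polysome mt-Co1 was -0.0043 with the block. In the interaction mt-Tw was 0.0050 and mt-Tt -0.043 in set B, and mt-Nd6 0.46 with the block. The ribosome-free rRNA share difference was -0.0825 percentage points in set B and -0.0892 per 100 counts of other genes. The cause of these changes was not tested.

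With each library left out in turn, log2 fold changes in total RNA ran from -0.095 to 0.32 for mt-Co1, -0.039 to 0.24 for mt-Cytb, -0.32 to 0.25 for mt-Nd1 and -0.49 to 1.44 for mt-Ti. In the ribosome-free pool the ranges were -1.06 to 0.16 (mt-Co1), -0.48 to 0.086 (mt-Cytb), -0.66 to 0.41 (mt-Nd1), -1.99 to 3.91 (mt-Nd6), -0.34 to 0.41 (mt-Rnr1), -0.46 to 0.50 (mt-Rnr2), -0.59 to 0.65 (mt-Ti), -1.04 to 2.69 (mt-Tp) and -0.39 to 0.81 (mt-Tw). In light polysomes they were -0.75 to 0.78 (mt-Co1), -0.087 to 0.75 (mt-Cytb), -0.23 to 0.98 (mt-Nd1), -1.03 to 3.13 (mt-Nd6), -0.51 to 0.60 (mt-Rnr1), -0.44 to 0.49 (mt-Rnr2) and -0.82 to 0.96 (mt-Ti), and in heavy polysomes -0.021 to 0.52 for mt-Rnr1. The interaction ran from -2.54 to 3.25 (mt-Nd6), -0.070 to 0.62 (mt-Rnr1), -0.025 to 0.87 (mt-Rnr2), -3.12 to 0.49 (mt-Tp) and -0.32 to 0.99 (mt-Tt).

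Share differences in percentage points ran from -0.667 to 1.94 (mRNA, light), -10.2 to 2.92 (mRNA, ribosome-free), -0.292 to 0.567 (mRNA, total), -0.000158 to 0.00313 (rRNA, heavy), -0.0105 to 0.0104 (rRNA, light), -0.304 to 0.253 (rRNA, ribosome-free), -5.67e-08 to 3.01e-05 (tRNA, heavy), -8.15e-05 to 0.000325 (tRNA, light), -0.00225 to 0.00549 (tRNA, ribosome-free) and -0.000359 to 0.000237 (tRNA, total). Log2 ratio differences ran from 0 to 1.52 (mt-Nd6, light), -0.43 to 1.86 (mt-Nd6, ribosome-free), and for tRNA to mRNA -0.53 to 0.10 (heavy), -0.13 to 0.20 (light) and -0.38 to 0.21 (total). Depth limits the tRNA values, and the 6 low mRNAs could not be compared.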
